A study of Zea mays with 72 samples.

Results

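The 200 genes described here were those whose transcript level dropped most steeply, step by step, from leaf 4 through leaf 5 to leaf 6 of control maize leaves. They were taken from 32235 genes with values in all libraries. A gene had to average at least 10 CPM (its count scaled to the same total in every library) in the leaf 4 controls, and its group mean plus 0.5 CPM had to show a ratio of at most 0.5 both in leaf 5 over leaf 4 and in leaf 6 over leaf 5. The leaf 4 minimum was met by 12230 genes and both ratios by 508, of which the 200 with the lowest leaf 6 to leaf 4 ratio were kept. The control libraries chose these genes, so their fall across the control leaves is a description and carries no test.

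The plants were B73 inbred seedlings at the V4 stage, and every library was made from 1 kind of detached whole leaf that had stood in water and then in clean airflow before treatment. Leaf 4 was mature, and the labels give removal of the sheath for this leaf alone, so sheath removal and leaf position cannot be told apart. For each leaf there were 6 libraries exposed to the leaf volatile (Z)-3-hexenyl acetate (HAC) from a dispenser for 30 min, 6 exposed to HAC for 2 h, 6 given the peptide ZmPep3 at around 1 µM for 2 h, and 6 controls, making 72 libraries in 12 groups. The hour at which controls were harvested is not given in the labels. HAC is one of the volatiles that damaged green leaves emit and that prime or induce defence in neighbouring tissue, and ZmPep3 is a plant elicitor peptide, a small peptide that acts as a damage signal through a membrane receptor. Grass seedlings develop their leaves one after another, so leaves of one plant sampled at one time differ in age and stage of development.

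Library totals ran between 26212027 and 31052273 counts, with a median of 29911694, so that 3 counts in a library corresponded to about 0.1 CPM. Leaf 6 control libraries 5 and 6, leaf 4 HAC 30 min libraries 5 and 6 and leaf 5 ZmPep3 libraries 1 and 6 were known from earlier work on these data to stand apart from their groups, and counts that changed without them are given beside the result. Among marker lists, the summed level of 14 genes of dividing cells ranged over 517 to 796 CPM in leaf 6 controls and 413 to 484 CPM in leaf 4 controls, with none of the 14 at 0. The 3 bundle sheath markers summed to 11696 to 14774 CPM in leaf 6 controls and 3187 to 5886 CPM in leaf 4 controls, and the 3 mesophyll markers to 16662 to 20907 CPM in leaf 6 controls and 12188 to 17306 CPM in leaf 4 controls. The 2 phloem markers ran the other way, at 523 to 636 CPM in leaf 6 controls against 1262 to 1565 CPM in leaf 4 controls, and the 3 ligule and sheath markers lay at 10.4 to 13.4 CPM in leaf 6 controls and 2.8 to 4.94 CPM in leaf 4 controls, where 1 of the 3 was at 0. These lists differed between leaf 4 and leaf 6 controls, though the mesophyll ranges overlapped, and not all were graded through leaf 5. In leaf 5 controls the dividing cell genes summed to 379 to 478 CPM and the mesophyll markers to 18183 to 20736 CPM. After 2 h of HAC the mesophyll median was 14175 CPM in leaf 6 and 15462 CPM in leaf 4, and after ZmPep3 it was 13154 CPM and 12338 CPM. The part of these lists in the levels below was not tested. In such bulk samples fewer cells of a type and less RNA per cell cannot be told apart.

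Together the 200 genes took a mean of 5.68% ± 0.375 of all counts in leaf 4 controls, 1.35% ± 0.309 in leaf 5 controls and 0.215% ± 0.0276 in leaf 6 controls (SD, n = 6 each). Their fold between leaves, computed on the mean plus 0.5 CPM, ran from 11.3 to 323 for leaf 4 over leaf 6, with a median of 19.2. The steps were of similar size: the median fold was 4.17 for leaf 4 over leaf 5 (2.04 to 24.1) and 4.46 for leaf 5 over leaf 6 (2.02 to 35.3), and the second step was the larger one in 107 genes. All 200 had leaf 6 control libraries below every leaf 4 control library, as did 30% of the 25558 genes tested. Leaf 5 controls lay wholly below leaf 4 controls in 192 of them (23.8% of genes tested) and leaf 6 controls wholly below leaf 5 controls in 173 (10.3%). These counts follow from the choice of the genes. At the edge of the list, the last genes inside it had leaf 6 to leaf 4 ratios of 0.0879 (LOC100281774), 0.0885 (ACT-1) and 0.0888 (LOC100384255), and the first outside it 0.0905 (LOC100283947), 0.0912 (LOC103641936) and 0.0912 (LOC100382367).

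The members spanned a wide range of levels. Leaf 4 control means ran from 10.1 to 7376 CPM with a median of 55.3 CPM, and 76 genes were at 100 CPM or more. In leaf 6 controls the median of the means was 1.85 CPM, and 70 genes averaged under 1 CPM. The median coefficient of variation over the 6 controls was 19.4%, 32.3% and 49.8% in leaf 4, 5 and 6, along with the lower levels of these genes in the younger leaves. Leading the list was LOC103649600, which averaged 337.6 CPM in leaf 4 controls, 13.5 CPM in leaf 5 controls and 0.547 CPM in leaf 6 controls, and whose counts were fractional in 68.1% of libraries. Per length of transcript, the most abundant members in leaf 4 controls were LOC100125656 at 10253 FPKM (fragments per kilobase of transcript, scaled for library depth), LOC100279907 at 4434 FPKM and LOC100275172 at 3334 FPKM. The first of these averaged 5519 CPM in leaf 4 controls, 1148 CPM in leaf 5 controls and 55.3 CPM in leaf 6 controls, and it stood at 41.1 CPM in leaf 6 after ZmPep3. Counts of LOC100279907 were fractional in 95.8% of libraries, so its level shares reads with similar transcripts. None of the 3 genes has a name in the RefSeq table used, and no role is given for them.

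Of the 200 genes, 198 were found in RefSeq's annotation of the Zm-B73-REFERENCE-NAM-5.0 assembly, 197 as protein-coding genes and 1 as a pseudogene, and 30 carried a gene name. In the same annotation bx1 and bx2, and likewise LOC100279907 and PDIL5-4, lay next to each other with no coding gene between them, and TPS2 and TPS3 were separated by 1 coding gene. In all, 11 pairs of members had at most 4 coding genes between them. Counts of 20 members (10%, against 10.2% of the genes at 10 CPM or more in leaf 4) were fractional in over 50% of the libraries where the gene had a count, because reads were shared between similar transcripts. TPS2, TPS3, bip1 and RGP were among them, and the split between such genes and their copies is uncertain.

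**Figure D1:**
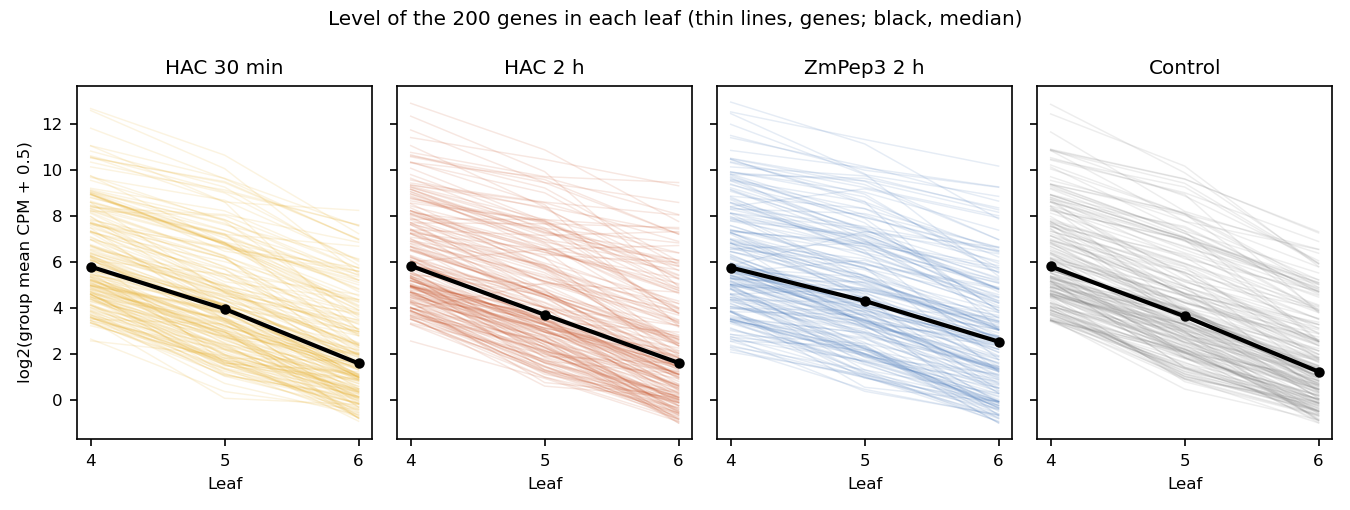
Each panel plots, for 1 treatment, the log2 of the group mean CPM plus 0.5 of the 200 genes (vertical axis) in leaves 4, 5 and 6 (horizontal axis), with a thin line per gene and the median in black. The median ends at 2.54 in leaf 6 after ZmPep3 and at 1.23 in leaf 6 of the controls that chose the genes, while in leaf 4 the 4 medians lie between 5.76 and 5.83.

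The downward gradient was measured again in the 54 treated libraries, which the choice of genes did not use. After 30 min of HAC all 200 genes were lower in leaf 6 than in leaf 4 (adjusted p under 0.05 in edgeR's quasi-likelihood test over 25558 genes), where 33.9% of all genes were called lower. After 2 h of HAC 194 were lower and 1 higher (34.5% and 36.4% of all genes), and after ZmPep3 197 were lower and none higher (32.8% and 37.5%). The median log2 fold change of leaf 6 over leaf 4 over the 200 genes was -4.08 after HAC for 30 min, -4.03 after HAC for 2 h and -3.47 after ZmPep3, beside medians of 0.02, 0.02 and 0.06 over all genes tested. With the 2 genes that had no count in leaf 6 set at the bound that 3 counts allow, these medians were the same. For leaf 6 over leaf 5, 192, 186 and 191 of the 200 were lower after HAC for 30 min, HAC for 2 h and ZmPep3 (21.7%, 21.6% and 20.3% of all genes). For leaf 5 over leaf 4 the counts were 192, 191 and 172 lower (25%, 25.6% and 24.2%), with none higher in leaf 5 after HAC for 30 min or 2 h (29.6% and 29.1%) and 3 genes higher after ZmPep3 (31.2% of all genes), namely LOC100382201, LOC103648227 and LOC103626199.

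Fitted fold changes refer to TMM-scaled libraries, and this scaling matters between leaves. On plain CPM the median gene ran at -0.28, -0.32 and -0.15 on the log2 scale for leaf 6 over leaf 4 after HAC for 30 min, HAC for 2 h and ZmPep3, so the scaling moved all genes up by 0.30, 0.33 and 0.21. For leaf 5 over leaf 4 the shift reached 0.26, and within a leaf it was at most 0.14.

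After 2 h of HAC 5 members did not pass the test for leaf 6 over leaf 4 and 1 was higher. Among the 5 were dxs2 and CYP92C5, genes of volatile terpene formation described next. LOC103639274 was the gene called higher in leaf 6: it averaged 104.4 CPM (93.8 to 116.1) in leaf 6 after 2 h of HAC, against 63.4 CPM (24.3 to 120.9) in leaf 4. Its log2 fold change was 1.11 ± 0.41 (SE, adjusted p = 0.0136). LOC100272792, LOC103646782 and LOC100284565 were not called in either direction, at 0.19 ± 0.24, 1.17 ± 0.89 and -0.71 ± 0.35 on the log2 scale. After ZmPep3 the genes not called were LOC100382201, LOC103648227 and LOC103646782. These unnamed genes were picked out after their values were seen.

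The 200 included 4 named genes of volatile terpene formation, of which dxs2 and CYP92C5 were not called lower in leaf 6 than in leaf 4 after 2 h of HAC, while TPS2 and TPS3 were. Maize leaves make linalool, nerolidol and the homoterpenes derived from it, and the pathway runs from plastid isoprenoid synthesis, which dxs2 opens with a 1-deoxyxylulose 5-phosphate synthase, through terpene synthases such as TPS2 and TPS3 to the cytochrome P450 CYP92C5, which makes homoterpenes. TPS2 had a lowest, median and highest value of 201.7, 268.7 and 309.1 CPM in leaf 6 after 2 h of HAC, of 8.85, 14.7 and 23.9 CPM after 30 min, and of 62.0, 71.8 and 87.6 CPM after ZmPep3, against 2.49, 3.81 and 9.94 CPM in leaf 6 controls. The 4 groups overlapped only between HAC for 30 min and the controls. In leaf 4 TPS2 had 490.6, 618.4 and 927.8 CPM after 2 h of HAC, 851.8, 1425 and 1709 CPM after ZmPep3, and 223.4, 367.0 and 621.5 CPM in controls.

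TPS2 in leaf 6 was higher after 2 h than after 30 min of HAC by 4.03 ± 0.30 on the log2 scale (SE, adjusted p = 2.18e-17), and the gain in leaf 6 exceeded that in leaf 4 by 3.61 ± 0.39 (adjusted p = 1.52e-10). ZmPep3 and HAC at the same 2 h ranked oppositely in the 2 leaves. In leaf 4, TPS2 was higher after ZmPep3 than after HAC by 1.16 ± 0.27 (adjusted p = 0.000441), and in leaf 6 it was lower by 1.86 (log2 fold change -1.86 ± 0.27, adjusted p = 1.59e-07). TPS3 followed with 1.57 ± 0.30 in leaf 4 and -1.81 ± 0.31 in leaf 6, CYP92C5 with 1.89 ± 0.24 and -1.06 ± 0.24, and dxs2 with 2.26 ± 0.28 and -1.81 ± 0.27. All 4 differences between leaf 6 and leaf 4 were called, at -3.02 ± 0.38, -3.38 ± 0.44, -2.95 ± 0.34 and -4.06 ± 0.39 for TPS2, TPS3, CYP92C5 and dxs2.

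The same sign change was called in 6 of the 200 genes, the other two being LOC100272792 and LOC103639274, where 0.579% of all genes showed it. LOC100272792 averaged 179.6 CPM in leaf 6 after 2 h of HAC and 99.3 CPM in leaf 6 after ZmPep3, but 535.8 CPM in leaf 4 after ZmPep3 and 207.2 CPM in leaf 4 after 2 h of HAC.

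For dxs2 the leaf 6 level after 2 h of HAC had a lowest, median and highest value of 118.9, 155.6 and 215.7 CPM, against 112.7, 170.0 and 231.2 CPM in leaf 4 after the same treatment. The groups overlapped nearly throughout, and the log2 fold change of leaf 6 over leaf 4 was 0.32 ± 0.27 (SE, adjusted p = 0.28). In controls dxs2 lay between 1.51 and 4.20 CPM in leaf 6, against 50.4 to 126.2 CPM in leaf 4. CYP92C5 behaved likewise, with 119.7, 170.7 and 238.8 CPM in leaf 6 and 177.6, 229.5 and 281.6 CPM in leaf 4 after 2 h of HAC, and a log2 fold change of -0.02 ± 0.23 (adjusted p = 0.946). After ZmPep3 the gradient of both genes was present, at -3.75 ± 0.30 for dxs2 and -2.96 ± 0.25 for CYP92C5. TPS3 kept a gradient after 2 h of HAC (-2.55 ± 0.32), with 25.7 to 47.4 CPM in leaf 6 against 199.9 to 433.2 CPM in leaf 4, and TPS2 a small one (-0.99 ± 0.27).

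The terpene and isoprenoid list held 16 genes, these 4 among them. After 2 h of HAC 7 of the 16 were higher and 4 lower in leaf 6 than in leaf 4, and after ZmPep3 7 were higher and 9 lower. Over all genes the shares were 36.4% higher and 34.5% lower after 2 h of HAC and 37.5% higher and 32.8% lower after ZmPep3, and each list count of leaf 6 over leaf 4 given from here on is to be read beside them. ZmPep3 over HAC at 2 h raised 10 of the 16 in leaf 4 and lowered none (15.2% and 16% of all genes), while in leaf 6 it raised 2 and lowered 5 (12.8% and 6.44%). Outside the 200, tps10, a sesquiterpene synthase, averaged 219.7 CPM in leaf 6 and 226.0 CPM in leaf 4 after 2 h of HAC (log2 fold change 0.36 ± 0.48, adjusted p = 0.506). It missed the list because its leaf 5 control mean, 0.468 CPM, was under its leaf 6 control mean of 0.917 CPM. The paralog of dxs2, dxs1, was higher in leaf 6 than in leaf 4, by 2.69 ± 0.14 on the log2 scale after 2 h of HAC.

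**Figure D2:**
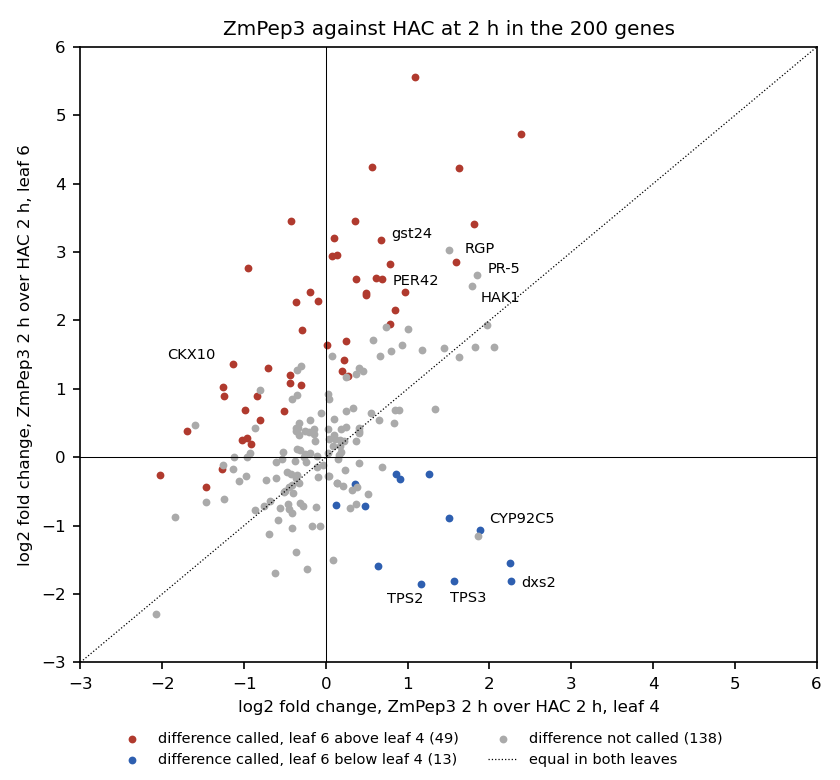
The log2 fold change of ZmPep3 over HAC at 2 h in leaf 6 (vertical axis) is plotted against that in leaf 4 (horizontal axis) for the 200 genes, coloured by the test of the difference between the leaves. TPS2, TPS3, CYP92C5 and dxs2 lie at lower right, higher in leaf 4 and lower in leaf 6, while the 49 red genes lie above the dotted line of equal response. HKT1 and LOC103639336 had no count in leaf 6 after either treatment and are drawn at 0 on the vertical axis.

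Benzoxazinoids are the main indole-derived defence compounds of young maize. Their synthesis starts with the indole-forming lyase BX1, goes on through P450 enzymes of which BX2 is the first, and is extended by the dioxygenase BX6. Bx6 was among the most abundant named members, at 1343 FPKM in leaf 4 controls beside 691 FPKM for bx1. In leaf 6, bx6 had 138.6, 181.4 and 272.7 CPM after 30 min of HAC, 570.3, 638.2 and 683.5 CPM after 2 h of HAC and 314.7, 382.3 and 510.3 CPM after ZmPep3, against 30.8, 63.4 and 110.8 CPM in controls (lowest, median and highest). None of the 4 groups overlapped another. It was higher after 2 h than after 30 min of HAC by 1.79 ± 0.19 on the log2 scale in leaf 6, and ZmPep3 stood below HAC at 2 h by 0.70 there (log2 fold change -0.70 ± 0.19, adjusted p = 0.00387). In leaf 4 ZmPep3 over HAC at 2 h did not pass the test (0.12 ± 0.19, adjusted p = 0.675). The gradient of bx6 remained at -1.70 ± 0.19 after 2 h of HAC and -2.52 ± 0.20 after ZmPep3.

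For bx2, leaf 6 values ran from 89.4 to 140.6 CPM after 2 h of HAC, from 6.48 to 99.3 CPM after 30 min and from 18.7 to 56.9 CPM after ZmPep3, against 3.62 to 25.3 CPM in controls. It was higher after 2 h than after 30 min of HAC by 1.35 ± 0.48 (adjusted p = 0.0353), and its level after ZmPep3 was lower than after 2 h of HAC by 1.69 (-1.69 ± 0.49, adjusted p = 0.00771). For bx1 the values were 41.0 to 61.4 CPM in leaf 6 after 2 h of HAC, 10.9 to 86.1 CPM after 30 min, 15.4 to 28.7 CPM after ZmPep3 and 7.29 to 81.3 CPM in controls, groups that overlapped. ZmPep3 over HAC at 2 h was -1.38 ± 0.44 for bx1 in leaf 6 (adjusted p = 0.0167). The highest control value was that of library 1. Of the 11 benzoxazinoid genes listed, 4 were lower and 2 higher in leaf 6 than in leaf 4 after 2 h of HAC, against 8 lower and 2 higher after ZmPep3 (34.5% lower and 36.4% higher, and 32.8% lower and 37.5% higher, over all genes). BX14 and BX13, genes of late steps, were the 2 higher ones, and ran opposite to the members in controls too, with BX14 at 117.8 CPM in leaf 6 and 1.98 CPM in leaf 4. ZmPep3 over HAC at 2 h lowered 9 of the 11 in leaf 6 and raised BX14 (1.61 on the log2 scale), where 6.44% of all genes were lower and 12.8% higher. In leaf 4 it changed only BX14 (2.36), with 16% of all genes lower and 15.2% higher.

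Another set of named members was higher after ZmPep3 than after HAC at 2 h in leaf 6. PR-5, a thaumatin-like pathogenesis-related protein, the peroxidase PER42, the glutathione transferase gst24, the potassium uptake carrier HAK1 and RGP, a reversibly glycosylated polypeptide of cell wall synthesis, belong here. Gst24 had 28.6, 40.2 and 92.0 CPM in leaf 6 after ZmPep3 and 3.44, 4.64 and 7.58 CPM after 2 h of HAC, against 2.30, 4.07 and 9.92 CPM in controls. The ZmPep3 libraries lay above all others, and HAC and control libraries overlapped. ZmPep3 over HAC at 2 h was 3.17 ± 0.27 in leaf 6 (adjusted p = 5.2e-15) and 0.67 ± 0.24 in leaf 4 (adjusted p = 0.0294), a difference of 2.51 ± 0.36 (adjusted p = 2.73e-07). After ZmPep3 its leaf 6 over leaf 4 gradient was -0.75 ± 0.24, against -3.26 ± 0.27 after 2 h of HAC.

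PER42 had 220.2, 251.4 and 557.5 CPM in leaf 6 after ZmPep3 and 36.1, 47.2 and 67.2 CPM after 2 h of HAC, beside 45.1, 56.9 and 63.5 CPM in controls. Its response to ZmPep3 over HAC was larger in leaf 6 than in leaf 4 by 1.91 ± 0.32 (adjusted p = 9.58e-06). RGP had 689.7, 973.2 and 2198 CPM in leaf 6 after ZmPep3 and 138.3, 157.3 and 160.8 CPM after 2 h of HAC, beside 62.0, 94.7 and 123.3 CPM in controls, 3 groups with no overlap. After 30 min of HAC it had 236.7, 316.2 and 352.4 CPM in leaf 6, and HAC for 2 h over 30 min was called lower there. ZmPep3 over HAC at 2 h was 2.86 ± 0.23 for RGP in leaf 6 and 1.59 ± 0.22 in leaf 4. PR-5 ran from 219.2 to 513.4 CPM in leaf 6 after ZmPep3 and from 22.7 to 66.5 CPM after 2 h of HAC, and HAK1 from 61.6 to 110.8 CPM after ZmPep3 and from 9.79 to 20.3 CPM after 2 h of HAC. Both rose in leaf 6 for ZmPep3 over HAC (2.67 ± 0.41 and 2.51 ± 0.21) and in leaf 4 (1.85 ± 0.39 and 1.79 ± 0.20), and the difference between the leaves did not pass the test for PR-5 (0.83 ± 0.54, adjusted p = 0.342) or HAK1 (0.72 ± 0.28, adjusted p = 0.0779). Leaf 6 ZmPep3 library 3 held the highest value of gst24, PER42, RGP, PR-5 and HAK1. Without it ZmPep3 over HAC in leaf 6 was 2.89, 2.37 and 2.59 for gst24, PER42 and RGP. Values without it are not given for PR-5 and HAK1.

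Larger fold changes of ZmPep3 over HAC at 2 h in leaf 6 were found among the unnamed members, and 3 such genes are given here. LOC100382201 had 33.5, 58.3 and 216.4 CPM in leaf 6 after ZmPep3 and 0.537, 1.74 and 2.92 CPM after 2 h of HAC, with 0.0339, 1.09 and 4.96 CPM in controls, a log2 fold change of 5.56 ± 0.50 for ZmPep3 over HAC. LOC100191769 averaged 285.2 CPM in leaf 6 after ZmPep3 and 10.5 CPM after 2 h of HAC (4.73 ± 0.38), and LOC103648227 averaged 241.2 CPM and 12.4 CPM (4.23 ± 0.37). In leaf 5, ZmPep3 carried LOC103648227 to 578.7 CPM, above the 117.0 CPM of leaf 4 controls. These 3 genes were chosen after their values were seen.

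**Figure D3:**
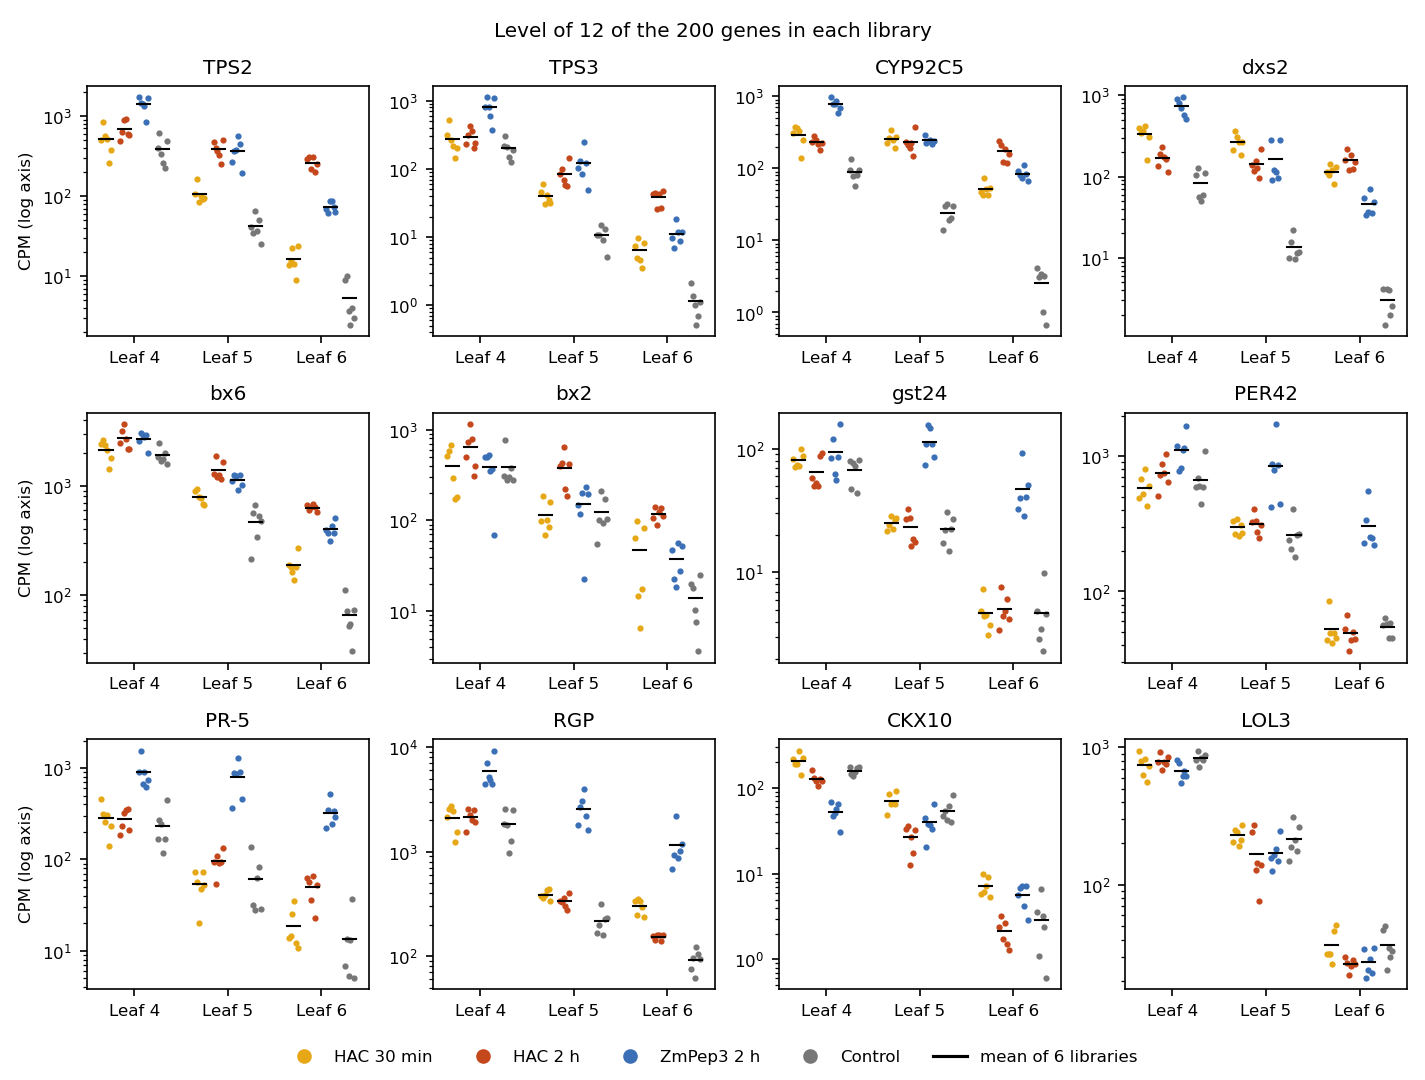
CPM of 12 named members (log axis) is plotted for every library, grouped by leaf and coloured by treatment, with black bars for the mean of 6 libraries. TPS2, TPS3, CYP92C5 and dxs2 are highest in leaf 6 after 2 h of HAC and highest in leaf 4 after ZmPep3, gst24, PER42, PR-5 and RGP are highest after ZmPep3 in leaf 6, and LOL3 lies between 21.1 and 51.2 CPM in all leaf 6 libraries.

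Across the whole list, ZmPep3 over HAC at 2 h raised 39 and lowered 34 of the 200 genes in leaf 4 (15.2% and 16% of all genes), 49 and 21 in leaf 5 (14.6% and 11.6%), and 61 and 23 in leaf 6 (12.8% and 6.44%). In percent of the 200 these are 19.5% and 17% in leaf 4, 24.5% and 10.5% in leaf 5, and 30.5% and 11.5% in leaf 6. The difference between leaf 6 and leaf 4 was called positive in 49 and negative in 13 (8.76% and 5.96% of all genes). HAC for 2 h over HAC for 30 min changed few of these genes in leaf 4, 1 higher and 3 lower (1.49% and 2.11%), but 29 higher and 22 lower in leaf 5 (7.03% and 8.35%) and 44 higher and 34 lower in leaf 6 (10.1% and 10.5%). For that pair the difference between leaf 6 and leaf 4 was positive in 32 and negative in 19 (5.67% and 6.01%). None of these comparisons used the control libraries.

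Over the controls, which also chose the genes, the counts are a description and give no independent support. After 30 min of HAC 5 genes were higher and none lower in leaf 4 (2.53% and 1.85% of all genes), 37 higher and 4 lower in leaf 5 (8.15% and 4.75%), and 53 higher and 4 lower in leaf 6 (8.49% and 3.21%). When libraries 5 and 6 of the leaf 4 HAC 30 min group were left out, 12 genes were higher in leaf 4, a count given without its share of all genes. After 2 h of HAC 4 were higher and none lower in leaf 4 (0.923% and 0.763%), 44 higher and 6 lower in leaf 5 (9.59% and 7.26%), and 66 higher and 14 lower in leaf 6 (13.9% and 11%). ZmPep3 raised 51 and lowered 46 in leaf 4 (20.3% and 21.9%), raised 86 and lowered 23 in leaf 5 (22.4% and 23%), and raised 106 and lowered 9 in leaf 6 (23.3% and 18.8%). The 3 treatments of a leaf were set against the same 6 controls. In 27 of the 200 genes none of the 9 comparisons was called (27.9% of all genes).

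Levels in the younger leaves can also be set against the leaf 4 controls, which chose the genes, so the following values are a description. The median member stood at 7.07% of its leaf 4 control mean in leaf 6 after ZmPep3, 6% after 2 h of HAC and 6.33% after 30 min of HAC, against 5.2% in leaf 6 controls. Of the 200, 6, 5 and 1 genes had a leaf 6 mean at or above their leaf 4 control mean after ZmPep3, HAC for 2 h and HAC for 30 min. In leaf 5 these counts were 28, 7 and 4. As a share of all counts the 200 genes took 0.779% ± 0.184 in leaf 6 after ZmPep3, 0.552% ± 0.0515 after 2 h of HAC and 0.328% ± 0.0247 after 30 min of HAC (SD, n = 6 each), against the 0.215% of the controls.

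**Figure D4:**
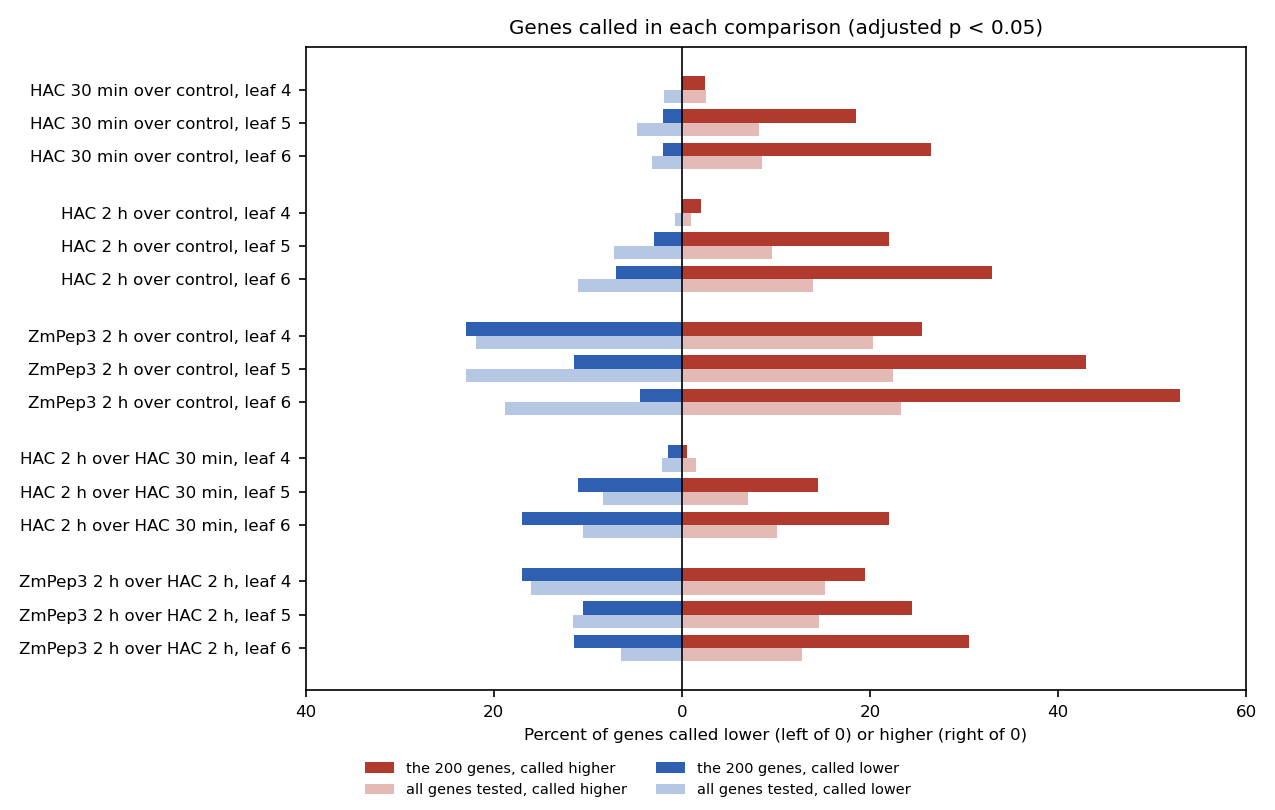
Bars give the percent of genes called higher (right of 0) or lower (left of 0) in each comparison, dark for the 200 genes and pale for all genes tested, with 3 leaves per block. The dark red bars reach 53% in leaf 6 and 25.5% in leaf 4 for ZmPep3 over control, where the controls also chose the genes, and 30.5% in leaf 6 and 19.5% in leaf 4 for ZmPep3 over HAC at 2 h.

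Some members moved in opposite directions in the 2 leaves under ZmPep3. CKX10, a cytokinin oxidase that breaks down cytokinins, had 30.8, 54.1 and 68.0 CPM in leaf 4 after ZmPep3 and 105.1, 123.4 and 163.3 CPM after 2 h of HAC, against 138.1, 160.7 and 176.3 CPM in controls, with no overlap between ZmPep3 and either other group. In leaf 6 it had 2.87, 6.22 and 7.22 CPM after ZmPep3 and 1.28, 2.06 and 3.22 CPM after 2 h of HAC, against 0.61, 2.79 and 6.55 CPM in controls. After 30 min of HAC its leaf 6 values were 5.39, 6.66 and 9.91 CPM, and HAC for 2 h over 30 min was called lower there. ZmPep3 over HAC at 2 h was -1.13 ± 0.27 in leaf 4 (adjusted p = 0.000654) and 1.37 ± 0.31 in leaf 6 (adjusted p = 0.00041), and the difference between the leaves was 2.51 ± 0.41 (adjusted p = 4.93e-06). In total 7 members were lower in leaf 4 and higher in leaf 6 for ZmPep3 over HAC with the difference called, where 0.466% of all genes were. Set against the controls, which chose the genes, it was 10 members, AGP2 among them (0.923% of all genes), a count that gives no independent support. The second cytokinin oxidase, cko2, rose in both leaves: ZmPep3 over HAC was 1.82 ± 0.25 in leaf 4 and 1.61 ± 0.25 in leaf 6. It was also higher in leaf 6 after 30 min of HAC (10.3, 22.7 and 34.1 CPM) than after 2 h (6.68, 9.07 and 10.6 CPM), and HAC for 2 h over 30 min was -1.36 ± 0.25.

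A higher level at 30 min than at 2 h was also measured for WRKY30, 1 of 3 WRKY transcription factors on the list. In leaf 6, WRKY30 had 0.233, 0.702 and 1.30 CPM after 2 h of HAC and 2.35, 3.12 and 5.02 CPM after 30 min, beside 0 to 1.77 CPM in controls, and the 2 HAC groups did not overlap. HAC for 2 h over 30 min was -2.33 ± 0.35 (adjusted p = 2.07e-07). HAC for 30 min over the controls, which chose the gene, was 2.54 ± 0.35, or 3.19 without leaf 6 control library 4. The chaperone gene hsp70-5 went the same way (-1.10 ± 0.24), as did WRKY1 (-1.03 ± 0.35), at 0.235 to 0.666 CPM after 2 h and 0.528 to 1.23 CPM after 30 min. WRKY29 was not called between the HAC times in leaf 6 (0.18 ± 0.33) but was higher after ZmPep3 than after 2 h of HAC, at 4.21 to 20.2 CPM after ZmPep3 and 0.604 to 2.72 CPM after HAC (2.40 ± 0.30). Of 22 WRKY genes listed, 15 were lower and 5 higher in leaf 6 than in leaf 4 after 2 h of HAC, and 13 lower and 4 higher after ZmPep3, where 34.5% and 32.8% of all genes were lower.

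Chaperones of the endoplasmic reticulum fold secreted proteins. The list of 20 chaperones and disulfide isomerases had 17 lower and 2 higher in leaf 6 than in leaf 4 after each of the 3 treatments (32.8% to 34.5% lower and 36.4% to 37.5% higher over all genes), although only bip1 and PDIL5-4 were steep enough for the 200. Bip1, the Hsp70 of this compartment, had a median of 33.9 CPM in leaf 6 after 30 min of HAC, 66.2 CPM after 2 h and 99.2 CPM after ZmPep3, against 30.4 CPM in controls, and the lowest library after 2 h of HAC (56.1 CPM) lay above the highest after 30 min (49.9 CPM). Between the HAC times it differed by 0.91 ± 0.20 in leaf 6 (adjusted p = 0.000261), and more than in leaf 4 by 1.01 ± 0.28. PDIL5-4, a disulfide isomerase-like protein, was not called in leaf 6 for HAC at 2 h over 30 min (0.27 ± 0.24) or ZmPep3 over HAC (-0.02 ± 0.24). The 15 listed heat shock genes had 12 lower and 1 higher in leaf 6 than in leaf 4 after 2 h of HAC, and the 8 actins, with ACT-1 in the list, 7 lower and 1 higher.

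The starch list held 3 members: Agpsemzm, a small subunit of ADP-glucose pyrophosphorylase, the enzyme that commits glucose to starch, AGP2, and GBSSIIa, a granule-bound starch synthase that makes amylose. The symbol AGP2 differs only in case from a synonym of Agpsemzm in the RefSeq table, so its place on this list is uncertain and no role is given for it. Of the 17 genes tested, 6 were lower and 7 higher in leaf 6 than in leaf 4 after 2 h of HAC, with AGP2 counted among the lower ones. Agpsemzm had 0.633, 1.10 and 1.44 CPM in leaf 6 and 31.3, 39.2 and 70.4 CPM in leaf 4 after 2 h of HAC, wholly apart. AGP2 was higher in leaf 6 after 2 h of HAC (71.5 to 102.6 CPM) than after 30 min (35.3 to 52.7 CPM), by 0.98 ± 0.17 (adjusted p = 3.07e-06). GBSSIIa was lower there after 2 h than after 30 min (medians of 15.3 CPM after 2 h and 26.1 CPM after 30 min, with no overlap), at -0.79 ± 0.24.

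HKT1, a sodium transporter gene, was at or near 0 in leaf 6. It had no count in any of the 6 leaf 6 libraries after 2 h of HAC and none after ZmPep3, against means of 25.7 CPM and 10.8 CPM in leaf 4. Set against 3 counts per library (0.1 CPM), leaf 6 was at least 257-fold lower after 2 h of HAC and at least 107-fold lower after ZmPep3. After 30 min of HAC the 6 leaf 6 libraries held 14 counts in all, and the controls held 6 counts, all in library 1. In leaf 4 it was lower after ZmPep3, with a median of 10.9 CPM, than after 2 h of HAC, with a median of 25.8 CPM and no overlap (-1.12 ± 0.28, adjusted p = 0.00134). The reverse case was LOC103646782, without a count in the 6 leaf 6 controls but with 10.7 to 36.4 CPM in leaf 6 after 2 h of HAC, at least 244-fold higher on the same floor. The leaf 6 controls also chose this gene, so the fold is a description, and its counts were fractional in 98.1% of the libraries where it had a count. Its leaf 4 level was uneven, from 5.27 to 25.2 CPM after 2 h of HAC. In leaf 5 controls LOC103646782 had a median of 0 CPM and a highest value of 8.36 CPM, and its place on the list rests on that highest library.

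R-S, a helix-loop-helix regulator of the R family that switches on anthocyanin genes, kept its gradient in all treatments, with 0.268 to 1.03 CPM in leaf 6, against 17.3 to 42.8 CPM in leaf 4, after 2 h of HAC (-4.82 ± 0.48). After ZmPep3 1 library decided its leaf 4 level: library 2 stood at 42.1 CPM and the median of the 6 at 6.88 CPM. The leaf 6 over leaf 4 value of -4.77 became -4.04 without it, and the leaf 5 over leaf 4 value of -2.91 became -2.17. ZmPep3 over the leaf 4 controls, which chose the gene, was -1.10 ± 0.39, and -1.83 without that library. The 14 listed anthocyanin and flavonoid genes split, with 7 lower and 4 higher in leaf 6 than in leaf 4 after 2 h of HAC.

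Among the other named members, LOL3, of the LSD1-like zinc finger family linked to cell death control, had 22.0 to 30.0 CPM in leaf 6 after 2 h of HAC, 26.8 to 51.2 CPM after 30 min and 21.1 to 35.0 CPM after ZmPep3, against 24.1 to 50.6 CPM in controls, and all 4 groups overlapped. No comparison between treatments within a leaf was called for LOL3. ACT-1 was lower after ZmPep3 than after 2 h of HAC in leaf 6 (-0.67 ± 0.15, adjusted p = 0.000364), at 7.32 to 10.1 CPM after ZmPep3 and 11.2 to 15.8 CPM after HAC. The aldehyde dehydrogenase gene rf2d (0.27 ± 0.25), HIT2 (-0.33 ± 0.48) and ARGOS6, of a family that affects organ size (0.24 ± 0.21), were not called for ZmPep3 over HAC in leaf 6. Of the 30 named members, 8 were higher, 9 lower and 13 not called in that comparison, where 12.8% of all genes were higher and 6.44% lower.

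**Figure D5:**
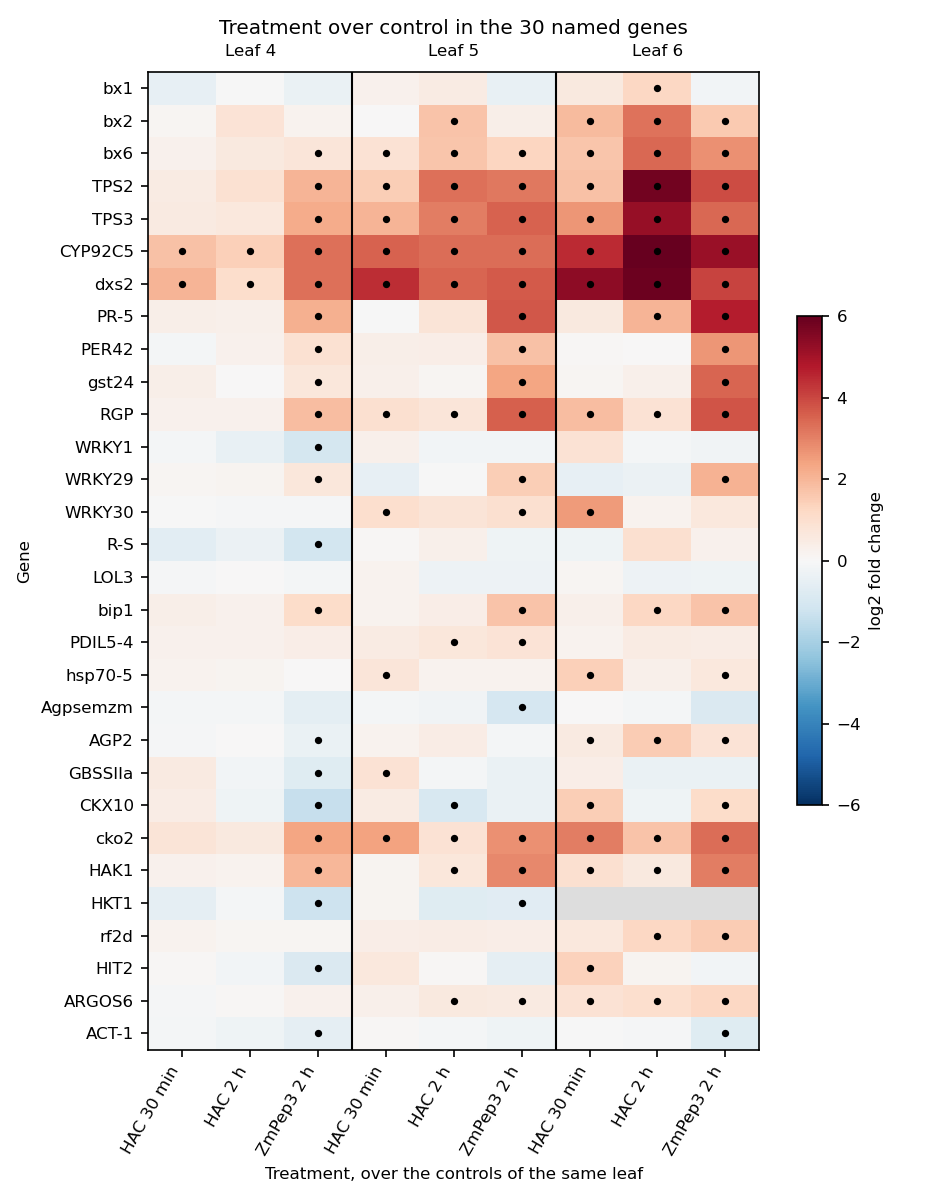
Colour gives the log2 fold change of each treatment over the controls of the same leaf (columns) for the 30 named members (rows, grouped by function), and a dot marks an adjusted p under 0.05. ZmPep3 in leaf 6 is called for 19 higher and 1 lower of the 30 (23.3% and 18.8% of all genes) against the controls that chose these genes, and the grey cells of HKT1 stand for leaf 6 groups at or near 0 counts.

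Lists of genes of other functions were counted in the same way. All 14 light harvesting and photosystem genes listed were higher in leaf 6 than in leaf 4 after each treatment, none of them a member, and the 14 C4 and Calvin cycle genes split 6 higher and 6 lower. Of 5 senescence genes, 4 were lower and 1 higher in leaf 6 after 2 h of HAC and 2 were lower after ZmPep3. None of the 200 was on these 3 lists. The lists are short and the rule takes only genes lower in leaf 6 controls, so this absence carries no information.

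The remaining lists, in the order leaf 6 over leaf 4 after 2 h of HAC and then after ZmPep3, gave the following counts, beside 36.4% higher and 34.5% lower and then 37.5% higher and 32.8% lower over all genes. Of 8 cytokinin oxidases tested 3 were higher and 4 lower, then 1 higher and 5 lower, and of 8 cytokinin response regulators 2 were higher and 4 lower, then 1 higher and 2 lower. The 21 potassium and sodium transporters tested had 5 higher and 12 lower, then 4 higher and 8 lower. Of 31 glutathione transferases tested 13 were higher and 12 lower, then 10 higher and 14 lower, and the 9 aldehyde dehydrogenases had 2 higher and 4 lower, then 2 higher and 3 lower. Of 7 pathogenesis-related proteins 1 was higher and 2 lower, then 1 higher and 3 lower, and ZmPep3 over HAC at 2 h raised 5 of the 7 in leaf 6 and 6 in leaf 4 (12.8% and 15.2% of all genes). The 5 peroxidases split into 3 higher and 2 lower after either treatment.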

How the data were processed

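RNA was sequenced from 72 whole-leaf libraries. Per the submitters' processing notes the authors used Bowtie2 and RSEM with B73 RefGen_v4. The deposited tables hold expected counts, not whole for 11.1% of values above 0 (tolerance 1e-06), and FPKM per gene; the counts were rounded to whole numbers for testing, and FPKM served only to set genes side by side. Blank entries (11312 of 43547) were left out. All libraries entered 1 fit with a coefficient for each leaf and treatment (edgeR 4.0.16 in R 4.3.3, TMM scaling, filterByExpr, robust quasi-likelihood F test; 25558 genes, common dispersion 0.0631), and p-values were adjusted by Benjamini-Hochberg over all genes of a contrast with a threshold of 0.05. Alternatives used DESeq2 1.42.0, its size factors, other filters and fewer libraries. The fit was tested on simulated counts. Replicates are the labels' 6 biological replicates.

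The members, lists and tests were chosen with earlier results of these data known. Genes were named in the text when the RefSeq table (assembly Zm-B73-REFERENCE-NAM-5.0, used for names and neighbours only) gives a name other than a locus number, plus unnamed members picked out after their values were seen. That table has no descriptions, so lists were assembled from symbols and synonyms once it was at hand. Promoter and protein sequences were not used here. The comparisons of responses over control between leaves were added after the data were seen.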

Additional observations from a re-analysis of the deposited data

Results flagged for a closer look

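Among 372 groups of 6 libraries examined, over the 30 named members and the members' share of counts in all 12 groups, 36 held 1 library standing apart from the other 5, where chance would give about 1 in 20. The library was the lowest for WRKY30, rf2d, PDIL5-4 and, in leaf 6 after ZmPep3, hsp70-5, and the highest in every other case named here.

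In leaf 6 after ZmPep3, library 3 stood apart for RGP (2198 CPM), PER42 (557.5 CPM), gst24 (92.0 CPM), WRKY29 (20.2 CPM) and the members' share of all counts (1.14%), library 6 for PDIL5-4 (7.73 CPM) and library 4 for hsp70-5 (2.37 CPM). In leaf 4 after ZmPep3, library 2 did for PR-5 (1553 CPM), Agpsemzm (75.7 CPM), R-S (42.1 CPM) and HIT2 (41.3 CPM), and library 1 for WRKY30 (20.3 CPM). The leaf 5 ZmPep3 libraries were 1 for CYP92C5 (293.5 CPM), hsp70-5 (12.9 CPM) and WRKY1 (5.16 CPM), and 4 for PER42 (1734 CPM) and HAK1 (416.5 CPM). Leaf 5 after 2 h of HAC had library 2 apart for ACT-1 (52.9 CPM) and HIT2 (9.86 CPM). After 30 min of HAC it was library 2 in leaf 5 for AGP2 (169.9 CPM), TPS2 (164.3 CPM) and Agpsemzm (8.88 CPM), library 3 in leaf 5 for hsp70-5 (20.2 CPM) and HIT2 (19.0 CPM), and in leaf 6 library 6 for bx6 (272.7 CPM), library 2 for PER42 (85.4 CPM) and hsp70-5 (7.72 CPM) and library 3 for CYP92C5 (74.7 CPM). In leaf 6 controls it was library 1 for HKT1 (0.203 CPM), Agpsemzm (2.78 CPM) and bx1 (81.3 CPM), and library 5 for PR-5 (36.5 CPM) and gst24 (9.92 CPM). In leaf 4 controls it was library 4 for rf2d (20.4 CPM) and library 2 for bx2 (765.9 CPM), and in leaf 5 controls library 3 for cko2 (18.2 CPM).

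Without leaf 6 control library 5, PR-5 over control in leaf 6 became 5.33 for ZmPep3 (from all libraries, 4.72) and 2.66 for HAC at 2 h (2.04), and the leaf 6 minus leaf 4 differences became 3.19 (2.58) and 2.37 (1.75). The controls also chose PR-5, and library 5 was its highest in leaf 6 controls, so these values are a description.

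The response differed between leaf 6 and leaf 4 in 51 members for HAC at 2 h over 30 min and in 62 for ZmPep3 over HAC at 2 h, by the interaction term of the fit. Over control, which shares its libraries with the choice of genes, it differed in 29 members for HAC at 30 min, 55 for HAC at 2 h and 91 for ZmPep3 (all 29 and all 91 positive, and 49 positive and 6 negative for HAC at 2 h). Between leaf 5 and leaf 4 the counts were 11, 18 and 37, all positive. Without libraries 5 and 6 of the leaf 4 HAC 30 min group, the 29 became 19 (18 positive and 1 negative) and the 11 became 4. The background for positive differences was 4.23%, 7.27% and 12.2% of all genes for leaf 6 and 2.68%, 2.21% and 5.33% for leaf 5. For negative differences it was 1.02%, 4.06% and 6.4% for leaf 6 and 0.477%, 0.477% and 2.15% for leaf 5. Beside the 51 members, 5.67% of all genes were positive and 6.01% negative, and beside the 62, 8.76% and 5.96%. The counts without the 2 libraries are given without a share of all genes.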

How the results depend on the processing

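Of the 200 genes, 170 (deposited FPKM with the same thresholds) to 190 (a leaf 4 minimum of 5 CPM) were shared when the rule was applied with another scaling, pseudocount, minimum or the median of the controls. Direction never reversed among the values of the named genes. For the counts of members only the total of higher and lower calls was compared, so a change of direction could not show there. Of the counts of members under other settings, 211 stayed within 1.5 times and 7 did not. HAC for 2 h over 30 min in leaf 4 gave 12 calls when only its own groups were fitted (4 with all groups). HAC for 30 min over control in leaf 4 (5 calls) gave 8 with DESeq2, 21 with its own groups alone and 12 without leaf 4 HAC 30 min libraries 5 and 6; HAC for 2 h over control in leaf 4 (4 calls) gave 2 with its own groups. Without the same 2 libraries, the HAC 30 min difference was called in 19 members for leaf 6 minus leaf 4 (29) and 4 for leaf 5 minus leaf 4 (11). The cause was not tested. These counts are given without the share of all genes called under each setting. A shift in the members therefore cannot be told from a shift in all genes. For named genes, 8097 values under other settings kept direction and side of the threshold, 46 lost the call and 72 gained it. WRKY30's leaf 6 minus leaf 4 difference at 30 min over the controls, which chose the gene, was 2.57, and 3.21 without leaf 6 control library 4.

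Over all genes tested, same-numbered libraries did not deviate together (23 of 396 pairs correlated above 0.1, median 0.0093). A shared deviation of the members alone was not tested. Library 2 had the highest member share of all counts in leaf 4 and leaf 6 controls (6.36% and 0.248%). It was also highest in leaf 4 after ZmPep3 (7.69%) and in leaf 5 after HAC for 30 min (1.73%) and 2 h (2.42%). In leaf 6 it was highest after 2 h of HAC (0.625%), and in the remaining groups another library was. With replicate number as a block, ZmPep3 over HAC at 2 h gave 84 calls in leaf 6 (84 without the block). The same comparison gave 72 in leaf 5 (70) and 74 in leaf 4 (73). The share of all genes called with the block is not given, so steadiness of the members cannot be told from that of all genes. In leaf 6 controls 70 members averaged under 1 CPM, and their low counts limit the precision of single genes.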
